A study of Rattus norvegicus with 9 samples.

Results

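The TGF-β ligands, receptors and Smads described here were 10 genes chosen by name from the gene symbols of the deposited tables: the ligands Tgfb1, Tgfb2 and Tgfb3, the receptors Tgfbr1, Tgfbr2 and Tgfbr3, and the signal carriers Smad2, Smad3, Smad4 and Smad7. All 10 were found among the 17156 genes listed. Their mRNAs were measured by RNA-seq of polyA-selected RNA in the livers of 9 male Sprague–Dawley rats, 3 in each group. The normal control group received saline. The model group received CCl4, a liver toxin, by gavage at 2 ml/kg as a 50% solution in oil, 2 times a week for 9 weeks. The TA group received the same CCl4 and then tormentic acid (TA), a plant triterpene, at 3.0 mg/kg for 6 weeks. The labels of the TA livers carry no dose, which comes from the series' design, and what the model rats were given during those 6 weeks is not given in the sources used here. Every rat was fasted for 12 h before its liver was taken.

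TGF-β is secreted in a latent form that binds the matrix through latent TGF-β binding proteins and is released by integrins, thrombospondin and proteases. The free ligand joins the type II receptor (Tgfbr2) to the type I receptor (Tgfbr1), which phosphorylates Smad2 and Smad3; these enter the nucleus with Smad4 and switch on target genes. Smad7 is a target of the pathway that blocks the type I receptor, and betaglycan (Tgfbr3) presents ligand, Tgfb2 above all, to the signalling receptors. In fibrotic liver, TGF-β is best known as the signal that turns hepatic stellate cells into collagen-making myofibroblasts.

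Between 13156735 and 18090405 reads were counted per liver. Levels are CPM, the counts scaled to a common library size, after TMM normalization over the 9 livers, and levels of different genes are compared only as the FPKM the authors deposited, which are corrected for gene length. The first model rat stood apart in measures taken over all genes: its 50 most abundant genes took 27.9% of the counts, against 40.4% to 45.7% in the other 8 livers, and its TMM factor was 1.69, against 0.816 to 1.16. Hepatocyte markers were the most abundant of the marker lists in every liver, at a summed level of 139015 to 176968 CPM in the normal control group, 37958 to 121631 CPM in the model group, with the first model rat lowest, and 119477 to 196235 CPM in the TA group.

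Upstream sequence was at hand for all 10 genes, from RefSeq promoters of rat assembly GRCr8. The windows of Tgfb1 and Tgfbr3 are shown, as the ligand with the most mRNA and as the receptor that presents ligands, in lower case from 5′ to 3′, each being the 250 bases before the gene's start on the + strand (Tgfb1 at chr1:90324062-90324311, Tgfbr3 at chr14:2634044-2634293). Capitals mark the only motif match, a GC box in the Tgfbr3 window.
Tgfb1: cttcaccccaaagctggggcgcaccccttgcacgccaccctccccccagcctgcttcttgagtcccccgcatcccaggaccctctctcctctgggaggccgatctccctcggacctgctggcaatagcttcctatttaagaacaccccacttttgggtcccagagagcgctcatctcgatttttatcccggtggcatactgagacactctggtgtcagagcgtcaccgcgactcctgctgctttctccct
Tgfbr3: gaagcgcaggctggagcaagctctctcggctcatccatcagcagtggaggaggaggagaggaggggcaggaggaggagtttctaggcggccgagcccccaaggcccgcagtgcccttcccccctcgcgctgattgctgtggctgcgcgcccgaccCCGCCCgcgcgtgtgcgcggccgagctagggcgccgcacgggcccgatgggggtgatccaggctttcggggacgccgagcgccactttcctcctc
Both strands were searched for the Smad palindrome (GTCTAGAC), the CAGA box that binds Smad3 (AGCCAGACA), the AP-1 site (TGACTCA) and the GC box (GGGCGG). The windows of Tgfb2, Tgfb3, Tgfbr1, Tgfbr2 and Smad2, which had 2 windows, did not end at the start of the RefSeq gene. The first 3 motifs were in none of the 10 genes' windows, and in 0.173%, 0.314% and 4.05% of all 33469 windows. The GC box was in the windows of 6 of the 10 genes (Tgfbr1, Tgfbr2, Tgfbr3, Smad2, Smad3 and Smad7) and in 30.5% of all windows, and in none of the windows of the ligands.

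The first comparison, Model VS Normal, asks what CCl4 did to the pathway. The ligand mRNAs were higher in every model liver than in any normal one, and none of the Smads passed the test. Tgfb2 and Tgfb3 rose 7.63-fold and 13.6-fold. Tgfb1 had a fold change of 4.47 that did not pass the adjusted test. Of the receptors, Tgfbr1 and Tgfbr3 were higher in every model liver than in any normal one, by 1.68-fold and 1.75-fold, without passing the test either.

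Tgfb1, the major ligand of injured liver, had 22.8, 13.4 and 12.1 CPM in the 3 normal livers. Its level was 140, 40.4 and 35.1 CPM in the 3 model livers. All of the model livers lay above the normal ones, and the first model rat had 3.98 times the Tgfb1 of the lowest model rat. Its log2 fold change was 2.16 (SE 0.57), with an adjusted p of 0.0572 by edgeR's quasi-likelihood test with Benjamini-Hochberg adjustment; DESeq2 and limma gave adjusted p-values of 0.0036 and 0.0188. Without the first model rat it was 1.21, so that this 1 liver carries much of the mean difference; the other model rats remained above every normal liver.

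Tgfb2, a ligand that needs betaglycan for high-affinity binding, was the rarest of the 10. Only 13, 9 and 4 reads were counted on it in the normal livers (1.08, 0.58 and 0.34 CPM), against 98, 97 and 64 in the model livers (4.40, 6.38 and 4.53 CPM). The groups were well apart, and unlike Tgfb1 and Tgfb3 it was not highest in the first model rat in CPM. In the deposited FPKM that rat was highest by a narrow margin, at 1.72 against 1.71 and 1.10, so this order depends on the normalization. A log2 fold change of 2.93 (SE 0.52) had an adjusted p of 0.0215 in edgeR. With so few reads in the normal livers, Tgfb2 passed the filter on low counts through the model livers, and its fold change rests on the small normal counts. With the first model rat left out, the value was 3.01.

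Tgfb3 changed the most. Its level went from 2.16, 2.90 and 2.01 CPM in the normal livers to 54.8, 18.8 and 23.2 CPM in the model livers, so that the lowest model liver had several times the level of the highest normal liver. The log2 fold change of 3.77 (SE 0.47) had an adjusted p of 0.0104 in edgeR. Without the first model rat it was 3.12. Among all 12730 genes tested, it was larger than that of 97.9% of genes.

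The receptors moved less. Tgfbr1, the type I receptor kinase, had 11.1, 16.9 and 12.8 CPM in normal livers and 29.2, 17.1 and 22.1 CPM in model livers; the groups were separated by the narrow gap between 16.9 and 17.1 CPM. Tgfbr3 had 15.4, 12.6 and 10.9 CPM in normal livers and 29.2, 22.3 and 16.5 CPM in model livers, again without overlap. Their log2 fold changes were 0.74 (SE 0.28) and 0.81 (SE 0.28), with adjusted p-values of 0.133 and 0.110 in edgeR.

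Tgfbr2, the ligand-binding type II receptor, varied more within each group than between groups. It had 24.3, 32.8 and 9.15 CPM in normal livers and 49.1, 9.22 and 22.0 CPM in model livers, a 5.33-fold range among the model rats alone. The log2 fold change was 0.28 (SE 0.63), and it turned to -0.53 without the first model rat, so no direction can be given for this gene.

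No Smad passed the test. Smad2 and Smad3, the receptor-activated Smads, had log2 fold changes of 0.26 (SE 0.26) and 0.29 (SE 0.24). Smad4, their common partner, had 0.16 (SE 0.31). Smad7, the inhibitory Smad, had 23.5, 17.8 and 15.6 CPM in normal livers and 16.4, 20.4 and 23.7 CPM in model livers, which cover the same range, and a log2 fold change of 0.09 (SE 0.25, adjusted p = 0.838 in edgeR). Scaled by library totals alone, which moved the median of all genes to 0.65, the log2 fold changes of Smad2, Smad3, Smad4 and Smad7 were 0.94, 0.89, 0.82 and 0.67, none with an adjusted p under 0.05. An absence of change is not shown by these values: a standard error of 0.24 to 0.31 leaves room for differences of about the size seen for Tgfbr1 and Tgfbr3.

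**Figure D1:**
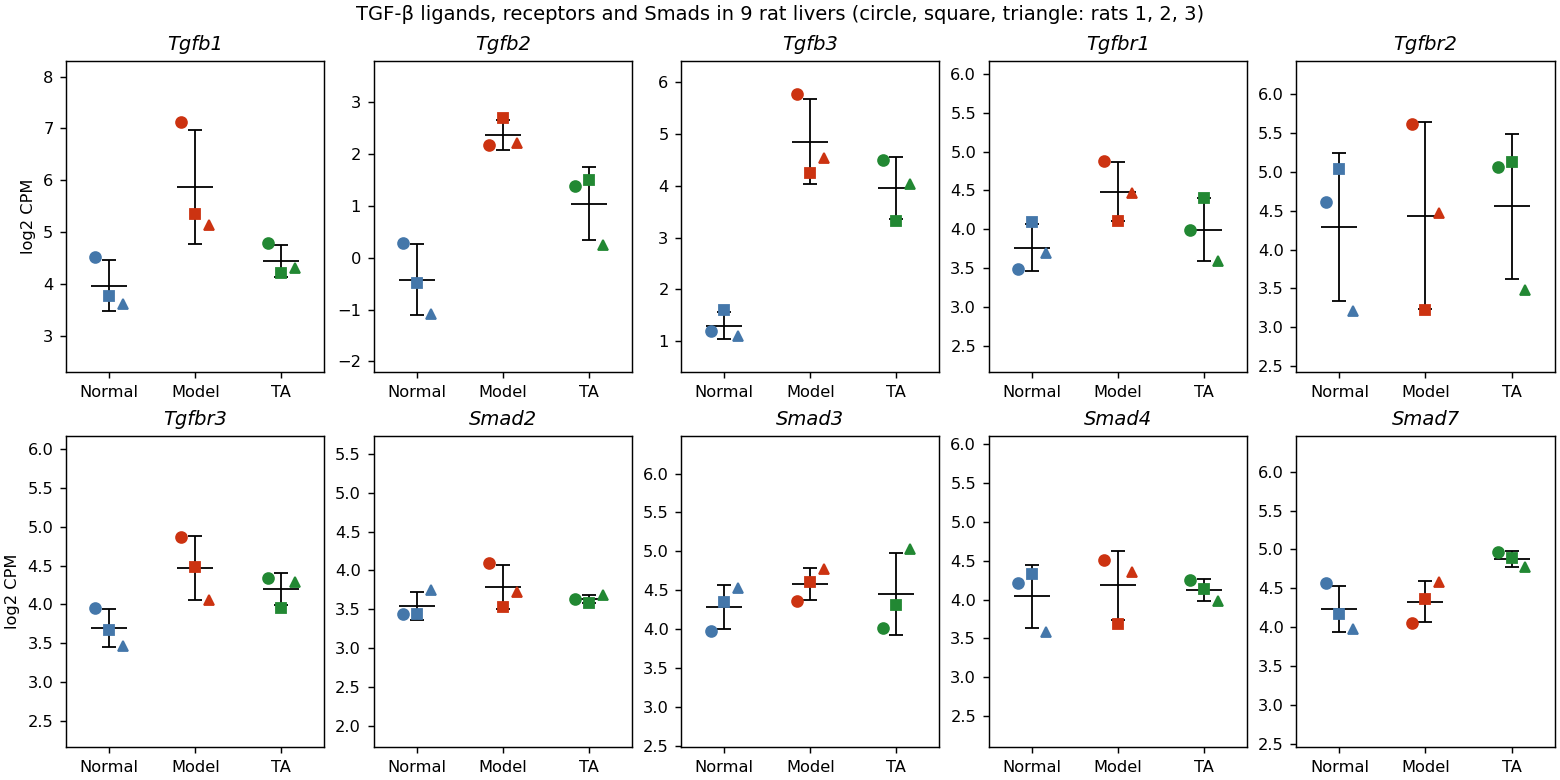
Level of each gene in every liver (y axis: log2 CPM, with a prior count of 2; x axis: group), with the mean and SD of the 3 livers in black and a circle, square and triangle for rats 1, 2 and 3. The ligand panels span a wider range of log2 CPM than the others, and the model livers of Tgfb1, Tgfb2 and Tgfb3 lie above all normal livers, while the groups of Tgfbr2 and the Smads overlap except for Smad7 in the TA livers.

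Counted over the 10 genes, 2 of 10 passed an adjusted p under 0.05 in Model VS Normal (Tgfb2 and Tgfb3, both higher), against 7.87% of all genes tested and 6.86% higher. Of these, Tgfb2 was tested only because of its reads in the model livers, which leaves Tgfb3 as the call that did not depend on the filter. By the rule in the study's methods, which asks for p under 0.05 before adjustment and a log2 change larger than 1 in either direction, 3 of 10 passed (the 3 ligands, all higher), against 22.1% of all genes and 16.6% higher. The groups did not overlap for 5 of 10, all higher in the model livers, against 38.2% of all genes in either direction and 20.8% higher. All 10 log2 fold changes were above 0, with a median of 0.52, against 0.02 over all genes tested. Without any 1 of the normal rats, none of the 10 kept an adjusted p under 0.05 in edgeR (Tgfb3 between 0.0539 and 0.0888); over all genes, 51, 0 and 0 did without normal rats 1, 2 and 3, where 1002 did with every rat. Without the second model rat, Tgfb3 alone was called, with an adjusted p of 0.0518 for Tgfb2 in edgeR.

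TA VS Model asks whether the pathway differed in rats that received TA after CCl4. The ligands were lower in the TA livers, Tgfb1 and Tgfb2 in every TA liver below every model liver. Smad7 was higher in CPM, though not in FPKM, in every TA liver than in any model liver. None of these differences passed the adjusted test in edgeR, in which no gene at all was called.

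Tgfb1 stood at 27.5, 18.3 and 19.8 CPM in the TA livers, against the 35.1 to 140 CPM of the model livers. Its log2 fold change was -1.72 (SE 0.54), 0.304 of the model level, with an adjusted p of 0.262 in edgeR. It was -0.77 without the first model rat, and the remaining model and TA livers still did not overlap.

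Tgfb2 had 2.49, 2.71 and 1.04 CPM in the TA livers, from 35, 32 and 14 reads, against 4.40 to 6.38 CPM in the model livers. The groups were apart, with a log2 fold change of -1.29 (SE 0.46, adjusted p = 0.276 in edgeR). This value did not rest on the first model rat, since it was -1.38 without that liver.

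Tgfb3 showed a wider spread, at 22.6, 9.81 and 16.3 CPM in the TA livers and 54.8, 18.8 and 23.2 CPM in the model livers. The first TA rat lay between the lowest and the next model rat, so the groups overlapped. Here the log2 fold change was -0.99 (SE 0.47, adjusted p = 0.346 in edgeR), and -0.36 without the first model rat.

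Smad7 had 31.3, 29.4 and 27.2 CPM in the TA livers, the tightest group of this gene, all above the highest model liver at 23.7 CPM. The log2 fold change was 0.54 (SE 0.23), a ratio of 1.46, with an adjusted p of 0.308 in edgeR. Of the 10 genes it was the one with a positive log2 fold change in TA VS Model.

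The receptors and other Smads of the TA livers overlapped with the model livers. Tgfbr1 had 15.7, 21.1 and 11.9 CPM, Tgfbr3 had 20.2, 15.4 and 19.4 CPM, and Tgfbr2 had 33.3, 34.7 and 11.0 CPM in the TA livers. Their log2 fold changes were -0.49 (SE 0.31), -0.31 (SE 0.27) and -0.03 (SE 0.63). Those of Smad2, Smad3 and Smad4 were -0.17, -0.07 and -0.10, each smaller than its standard error.

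Of the 10 genes, 0 passed an adjusted p under 0.05 in TA VS Model in edgeR, against 0% of the 12781 genes tested. DESeq2 and limma also called 0 of the 10 but called 520 and 169 of all genes. At an unadjusted p under 0.05 there were 3 (Tgfb1, Tgfb2 and Smad7), against 15.6% of all genes, and by the study's rule 2 (Tgfb1 and Tgfb2, both lower), against 12.3% of all genes and 10.2% lower. The groups did not overlap for those same 3, against 23.1% of all genes, 12.8% lower and 10.3% higher. The median log2 fold change of the 10 was -0.24, where that of all genes rounded to 0.

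**Figure D2:**
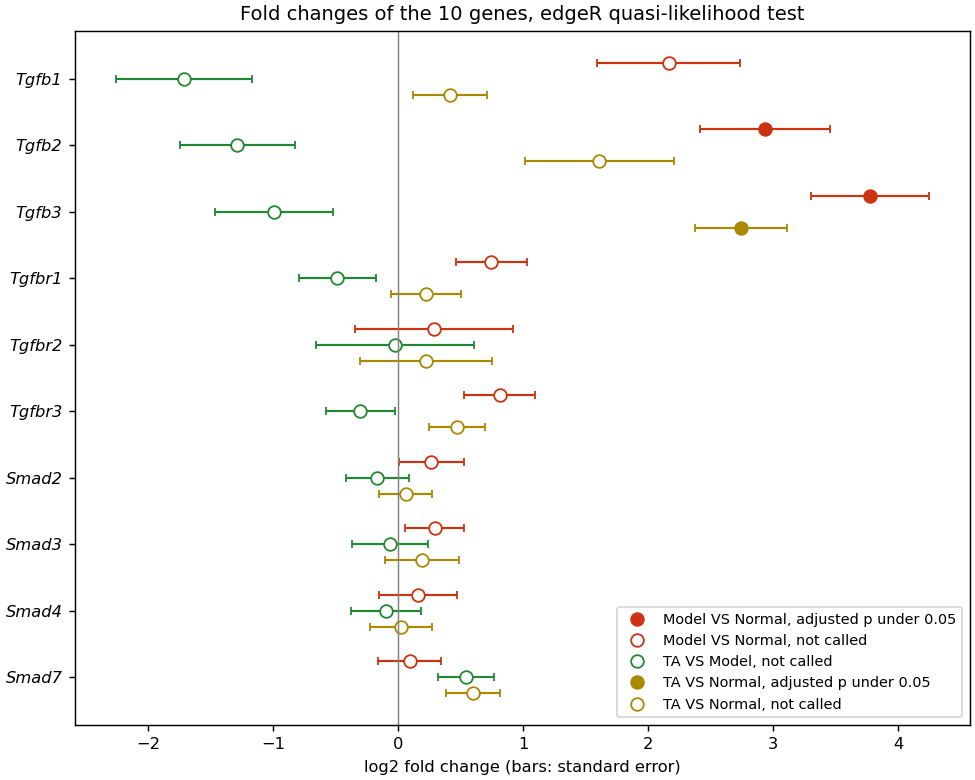
Log2 fold change of each gene (x axis, bars: standard error) in the 3 comparisons, with filled points for an adjusted p under 0.05 in edgeR. The filled points are Tgfb2 and Tgfb3 in Model VS Normal and Tgfb3 in TA VS Normal, and Smad7 is the only gene with TA VS Model to the right of 0.

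TA VS Normal compares the TA livers with livers that had seen neither agent. It shares its TA livers with TA VS Model and its normal livers with Model VS Normal, so it adds no independent sample. Tgfb3 was still higher in the TA livers than in the normal ones, at 9.81 to 22.6 CPM against 2.01 to 2.90 CPM. Tgfb1 overlapped with normal, and Smad7 was higher in every TA liver.

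For Tgfb3 the log2 fold change was 2.74 (SE 0.37), a 6.68-fold difference, with an adjusted p of 0.0255 in edgeR. Tgfb2 had 1.61 (SE 0.60, adjusted p = 0.426 in edgeR); the lowest TA liver, at 1.04 CPM, lay just under the highest normal liver, at 1.08 CPM. For Tgfb1 it was 0.41 (SE 0.30, adjusted p = 0.795 in edgeR), and the second TA rat, at 18.3 CPM, lay below the first normal rat, at 22.8 CPM.

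Smad7 differed from normal by 0.60 (SE 0.22, adjusted p = 0.409 in edgeR), with 27.2 to 31.3 CPM in the TA livers and 15.6 to 23.5 CPM in the normal livers. Tgfbr3 had a log2 fold change of 0.47 (SE 0.23), and its groups were barely separated, with 15.4 CPM in both the lowest TA and the highest normal liver. The other receptors and Smads lay between 0.02 (Smad4) and 0.22 (Tgfbr1 and Tgfbr2).

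Thus 1 of 10 (Tgfb3) passed an adjusted p under 0.05 in TA VS Normal, against 0.263% of the 12179 genes tested and 0.230% higher. By the study's rule 2 of 10 (Tgfb2 and Tgfb3, both higher) passed, against 5.25% and 4.24% higher. Tgfb2 passed the filter on low counts through its 35, 32 and 14 reads in the TA livers, so its place in this count is only a description. The groups did not overlap for 3 of 10 (Tgfb3, Tgfbr3 and Smad7, all higher), against 14.9% of all genes and 9.07% higher. With the rat number as a block, Tgfb3 had an adjusted p of 0.0166 in edgeR and was again the 1 gene of the 10 called, while the calls over all genes went from 32 to 203. The Tgfb3 call was lost without each of the normal rats (adjusted p 0.0995 to 0.124 in edgeR), without the first TA rat (0.116) and with all 9 livers in the fit (0.0727).

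**Figure D3:**
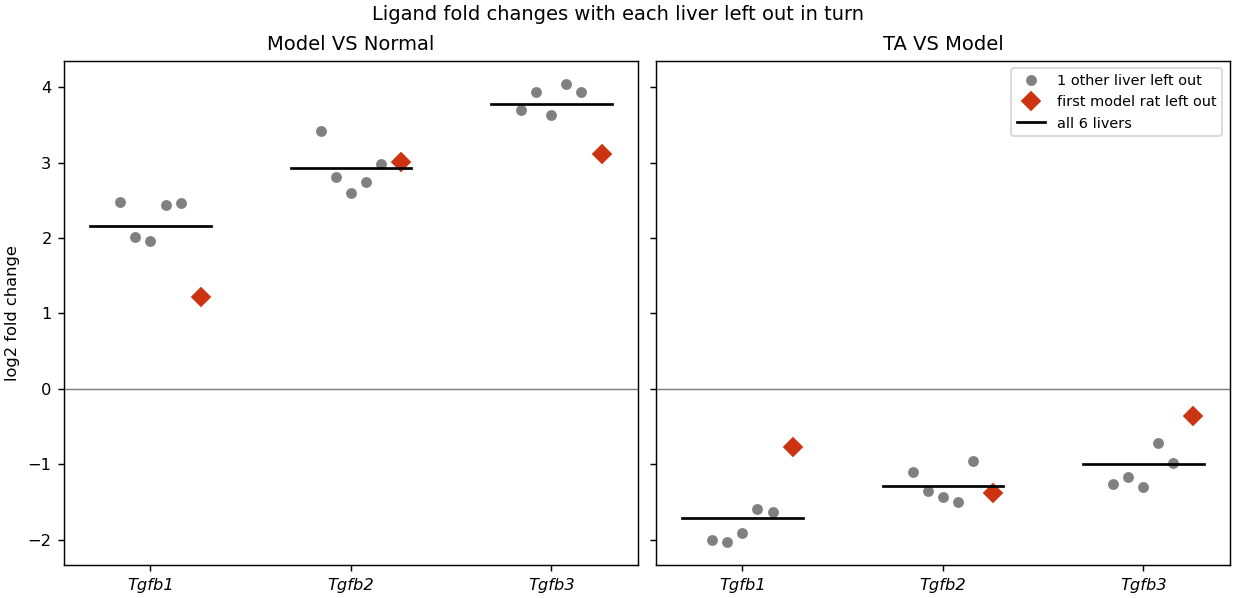
Log2 fold change of each ligand (y axis) in Model VS Normal and TA VS Model with all 6 livers (black line), without 1 of the other livers (grey) and without the first model rat (red). Leaving out the first model rat moved Tgfb1 from 2.16 to 1.21 and from -1.72 to -0.77, and Tgfb2 from 2.93 to 3.01 and from -1.29 to -1.38.

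The mix of ligands also differed between groups. On the FPKM scale, Tgfb1 made up 90.9%, 83.5% and 87.0% of the summed ligand FPKM in the normal livers. Its share was 74.8%, 68.6% and 62.3% in the model livers and 58.3%, 66.1% and 58.9% in the TA livers. Every normal liver lay above every model and TA liver, whereas the model and TA livers overlapped.

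The mean share differed by -18.5 percentage points in Model VS Normal and by -26.0 in TA VS Normal (exact permutation test, two-sided, p = 0.1 for each, the smallest p that 3 against 3 can give). In TA VS Model it differed by -7.48 points (exact permutation p = 0.2). Over the 3 comparisons none could reach an adjusted p under 0.05.

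Tgfb3 took up the difference: its share was 7.02%, 14.8% and 11.8% in normal livers, 24.0%, 26.0% and 33.7% in model livers and 39.1%, 29.0% and 39.6% in TA livers. Tgfb2 stayed at 1.17% to 5.38% in all 9 livers. The summed ligand FPKM itself was 9.92, 6.44 and 5.30 in the normal livers, 147, 31.8 and 27.7 in the model livers and 21.9, 11.6 and 14.4 in the TA livers, so that none of the groups overlapped, with the TA livers between the others.

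**Figure D4:**
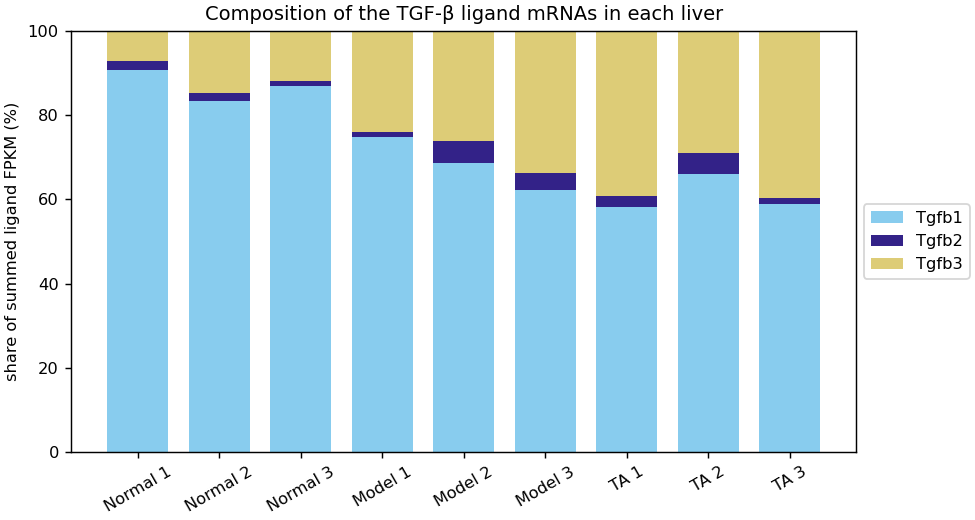
Share of the summed FPKM of Tgfb1, Tgfb2 and Tgfb3 (y axis, %) in each of the 9 livers (x axis). Tgfb3 makes up 7.02% to 14.8% of the bar in normal livers, 24.0% to 33.7% in model livers and 29.0% to 39.6% in TA livers.

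Ranked by mean FPKM in the normal livers, Smad4 (6.90 ± 1.93, SD, n = 3), Tgfbr2 (6.72 ± 3.76) and Tgfb1 (6.33 ± 2.35) came first and did not differ beyond their spread. Smad7 (3.72 ± 0.84), Smad2 (3.34 ± 0.34) and Smad3 (3.25 ± 0.57) followed, also overlapping. Tgfbr1 (1.96 ± 0.46) and Tgfbr3 (1.80 ± 0.34) lay apart below these, and Tgfb3 (0.758 ± 0.170) and Tgfb2 (0.130 ± 0.075) came last, each apart from its neighbours.

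In the model livers Tgfb1 (49.8 ± 52.5 FPKM) and Tgfb3 (17.7 ± 15.4 FPKM) came first, Tgfb3 at rank 2 where it had rank 9 in the normal livers. Without the first model rat the means were 19.5 FPKM for Tgfb1 and 8.80 FPKM for Tgfb3, which then had rank 3, beside Smad4 at 8.84 FPKM. Tgfb1 was above Tgfb3 in each of the 3 livers, although their ranges overlapped. Tgfbr2 (14.0 ± 13.9 FPKM) and Smad4 (12.1 ± 6.0 FPKM) came next, and Tgfb2 (1.51 ± 0.35 FPKM) was again last and apart. In the TA livers Tgfb1 (9.63 ± 2.75 FPKM) was first, Tgfb3 (5.87 ± 2.61 FPKM) had rank 5 and Tgfb2 (0.453 ± 0.200 FPKM) was last; among the first 6 genes no neighbours lay apart.

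The balance of the inhibitory Smad7 to the receptor-activated Smad3 was read as the ratio of their FPKM. It was 1.77, 1.04 and 0.799 in the normal livers, 0.941, 0.991 and 1.03 in the model livers and 2.29, 1.75 and 0.977 in the TA livers. The groups overlapped in each comparison (exact permutation p = 0.7 between model and normal livers, 0.3 between TA and model livers and 0.5 between TA and normal livers). The third TA rat, with the highest Smad3 of its group at 32.7 CPM, is the one that lay among the model rats. Between TA and normal rats of the same number, the ratio was higher under TA in 3 of 3 pairs (exact sign-flip permutation p = 0.25, the smallest that 3 pairs can give, in a test added after the data were seen).

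Genes with the profile most like each ligand were sought among 7959 genes, as the smallest root mean square difference of centred log2 CPM over the 9 livers. For Tgfb1 these were Akr1b1 (0.13), Msn (0.13) and Sh3bgrl3 (0.16). The nearest to Tgfb3 were Gpx3 (0.32), Mxra8 (0.33) and Adamts2 (0.33), and the nearest to Tgfb2 were Lgals3bp (0.42), Fbln5 (0.44) and Myadm (0.44), so Tgfb1 had closer neighbours than the rarer ligands. These distances describe 9 livers, of which the first model rat gives Tgfb1 its largest deviation.

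The counts for genes around these 10 can be read beside those over all genes tested: 6.86% higher in Model VS Normal and 0.230% higher in TA VS Normal at an adjusted p under 0.05, and 10.2% lower in TA VS Model by the study's rule. Of 22 genes that hold TGF-β latent or activate it, 9 rose and 0 fell at an adjusted p under 0.05 in Model VS Normal, with a median log2 fold change of 1.85; Itgb8, 1 of the 9, had under 10 reads in every normal liver and passed the filter on low counts through the model livers. Ltbp1 and Ltbp2, latent TGF-β binding proteins, rose by log2 fold changes of 2.98 and 2.88. Itgb6, the β chain of an integrin that releases TGF-β, rose by 3.97, and Thbs1 (thrombospondin), another activator, rose by 3.65. With only 8, 12 and 9 reads in the normal livers, Itgb6 also passed the filter through the model livers, and its call is only a description.

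Ltbp1 had 9.15 to 11.0 CPM in normal livers and 74.5, 78.3 and 80.4 CPM in model livers, an even rise with no excess in the first model rat. Its TA livers, at 69.0, 52.6 and 49.1 CPM, were below every model liver and far above every normal one. Itgb6 had 8.75, 17.3 and 8.77 CPM in model livers and 2.42, 0.846 and 1.57 CPM in TA livers, where the normal livers had 0.664, 0.773 and 0.755 CPM. In TA VS Normal 2 of 21 tested genes of this list rose, Ltbp1 by 2.50 and Ltbp2 by 2.33, and in TA VS Model 0 of 22 were called in edgeR, with 7 lower by the study's rule.

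Of 22 tested genes for other ligands of the superfamily and for binding inhibitors, 8 rose and 0 fell in Model VS Normal, with a median of 1.18. Of the 8, 4 (Inhbb, Fst, Fstl3 and Grem1) had under 10 reads in every normal liver. They passed the filter only through the model livers, where they are high, so that these 4 calls are only a description. Another 1 of the 8, Bmp4, had 16, 9 and 26 reads in the normal livers and may also have passed through the model livers. The inhibitors Fst (follistatin, which binds activins), Fstl3 and Grem1 (gremlin, which binds BMPs) were nearly unread in normal livers and counted in every model liver. Fst had 0, 2 and 3 reads in normal livers and 246, 44 and 41 in model livers, and Grem1 had 2, 3 and 0 reads against 242, 51 and 100. Dcn (decorin, a matrix proteoglycan that binds TGF-β) rose by 4.16 in Model VS Normal and by 2.11 in TA VS Normal, where it was the 1 gene called of 18 tested; it had 350 CPM in the first model rat and 42.0 and 54.0 CPM in the other model rats.

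Of 16 receptors and co-receptors, 2 rose in Model VS Normal: Acvrl1 (ALK1, a type I receptor of endothelium) by 1.70 and Nrp1 (neuropilin, a co-receptor) by 2.72. Of 21 other Smads, partners, co-repressors and turnover genes, 1 rose, Pmepa1, a TGF-β-induced inhibitor of Smad signalling. Its level was 3.74, 3.99 and 7.72 CPM in normal livers, 36.9, 18.2 and 17.5 CPM in model livers and 9.26, 8.97 and 9.77 CPM in TA livers, with a log2 fold change of 2.24 (adjusted p = 0.0269 in edgeR) in Model VS Normal and -1.37 (adjusted p = 0.246 in edgeR) in TA VS Model. Smad1 and Tgif1, a Smad co-repressor, had 0.42 and 0.41 in Model VS Normal, and the medians of the lists were 0.17 for receptors and 0.19 for Smads and partners.

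Of 23 genes commonly used as targets of TGF-β and Smad3, 10 rose and 0 fell in Model VS Normal, with a median of 2.43; Postn, 1 of the 10, had under 10 reads in every normal liver and passed the filter through the model livers. Ctgf (connective tissue growth factor) rose by 2.88, evenly over the model livers: it had 68.2, 95.0 and 62.4 CPM there, against 7.85 to 13.3 CPM in normal livers. Col1a1 (collagen I) rose by 7.08 and Timp1, an inhibitor of matrix proteases, by 4.10, and these were most abundant in the first model rat, with Col1a1 at 4442 CPM there and 232 and 243 CPM in the other model rats.

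In TA VS Model 0 of the 23 targets were called in edgeR, and by the study's rule 13 were lower and 1 (Cdkn1a, a cell cycle inhibitor) was higher, with a median of -1.52. Ctgf had 89.4, 15.9 and 27.6 CPM in TA livers, so the first TA rat lay among the model livers and the other TA rats below them. In TA VS Normal 1 of 22 rose, Col1a1, by 3.25. The lists were chosen with earlier results of these data known, and their counts are descriptions.

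**Figure D5:**
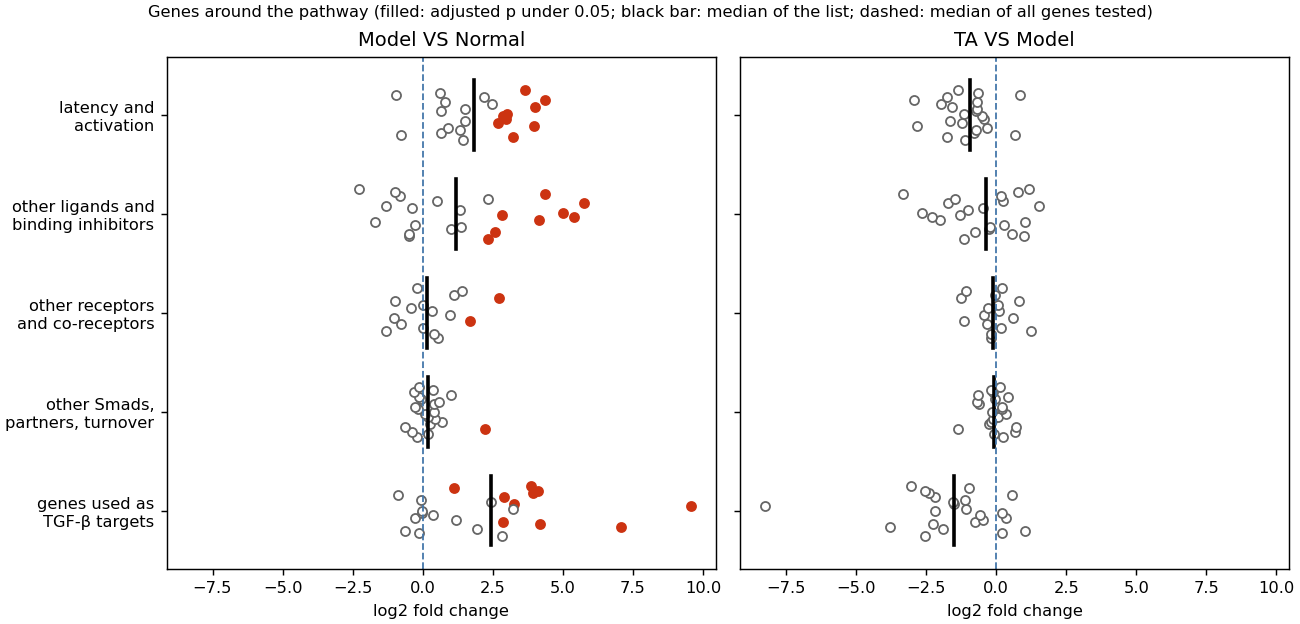
Log2 fold change (x axis) of each tested gene in 5 lists around the pathway in Model VS Normal and TA VS Model, filled where the adjusted p is under 0.05 in edgeR, with the median of each list in black and the median of all genes dashed. In Model VS Normal the medians are 1.85, 1.18, 0.17, 0.19 and 2.43 from top to bottom, and no point is filled in TA VS Model.

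Summed cell type markers were higher in every model liver than in any normal one for some lists and overlapped or were lower for others. In bulk liver, more cells of a type and more RNA of a gene per cell cannot be told apart. Markers of hepatic stellate cells and myofibroblasts summed to 284 to 431 CPM in the normal livers and 735 to 1289 CPM in the TA livers. In the model livers they summed to 12344, 1240 and 1564 CPM. At an adjusted p under 0.05, 6 of 13 rose in Model VS Normal, where 6.86% of all genes did. Only 11 of the 13 were tested in TA VS Normal, so some may have passed the filter on low counts through the model livers. The count is therefore only a description. Macrophage markers summed to 455 to 603 CPM in normal livers and 487 to 1002 CPM in TA livers. In the model livers they summed to 2378 CPM in the first rat and 423 and 525 CPM in the others. At an adjusted p under 0.05, 2 of 11 macrophage markers rose in Model VS Normal. By the study's rule 5 were higher and 1 was lower, against 22.1% of all genes and 16.6% higher.

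Cholangiocyte markers summed to 18.2 to 31.6 CPM in normal livers, 2000, 193 and 116 CPM in model livers and 34.6 to 54.0 CPM in TA livers. Markers of mesothelium summed to 0.839 to 2.49 CPM, 25.6 to 84.1 CPM and 4.65 to 12.7 CPM in the same order. At an adjusted p under 0.05 in Model VS Normal, 5 of 6 tested cholangiocyte markers and 2 of 2 tested mesothelium markers rose. Both lists were low in normal livers and may have passed the filter on low counts through the model livers, so these counts are only descriptions. The sum of the endothelial markers changed less (261 to 334, 259 to 418 and 304 to 373 CPM in normal, model and TA livers). By the study's rule 3 of 9 endothelial markers were higher and 1 was lower in Model VS Normal, against 22.1% of all genes. In TA VS Model 2 were higher and 1 was lower, against 12.3%, and 0 passed the adjusted test in either comparison. Markers of T, B and NK cells were at 29.1 to 48.9, 62.5 to 80.0 and 36.6 to 49.4 CPM. The pancreatic markers listed were at or below 2.09 CPM in every liver. Of the 10 endothelial and 5 pancreatic markers, 9 and 2 were listed in the tables, and no listed marker of any cell type was at 0 in all livers. The part of these cell types in the ligand differences was not tested.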

How the data were processed

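Liver RNA of 9 rats was sequenced, and groups were taken from the sample labels. Trimming, mapping with STAR and counting with HTSeq-count were done by the authors; the genome named in the methods is human (hg19), and the symbols in the tables are rat symbols. The authors deposited raw counts per gene, FPKM values per gene, and a signal, the counts divided by DESeq2 size factors, with their own fold changes and p-values, which were not used. The deposited signal was read only to check the tables. Whether counting used strand is not given in the sources used here, and RefSeq genes overlap Tgfb2, Tgfbr3 and Smad2.

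Counts were tested with edgeR 4.0.16 (TMM, its filter on low counts, quasi-likelihood test, Benjamini-Hochberg adjustment over all genes, only the groups compared) in R 4.3.3, and the test was tested on simulated data. The SE of a log2 fold change is its size over the root of its F. Tgfb1 share and the Smad7 to Smad3 ratio were compared by exact permutation, 3 against 3, two-sided. DESeq2 1.42.0, limma 3.58.1 with voom and quality weights, other normalizations and filters, all 9 libraries, the rat number as a block and each library left out were the alternatives. The rat numbers come from the labels of different animals; between TA and normal rats, deviations of those with the same number correlated at r of 0.23, 0.37 and 0.45, so a blocked fit is given there.

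The 10 members and the lists were chosen with earlier results of these data known. All members are named; of each list at most 4 genes, those with the smallest p in Model VS Normal, and those a count of 5 or fewer needs. One gene this rule names is not reported here. Upstream sequences are from RefSeq assembly GRCr8, in which all 10 symbols matched. Depth was 13156735 to 18090405 counts per liver. No protein or genome sequence was used here.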

Additional observations from a re-analysis of the deposited data

How the results depend on the processing

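The 10 log2 fold changes in each of 3 comparisons were recomputed under 17 alternatives, and 460 of these values kept their direction and side of the threshold, 9 gained a call, 12 lost one and 27 changed direction.

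In Model VS Normal, 2 of the 10 genes were called at an adjusted p under 0.05; limma voom and library totals alone called 4 each, the stricter filter 1, in which Tgfb2 was no longer tested, and leaving out 1 liver 0 to 3. The study's rule gave 5 with library totals alone, which moved the median of all genes to 0.65. In TA VS Model the study's rule gave 4 with library totals alone (median of all genes -0.48) and 0 to 3 with 1 liver left out: 0 without the third TA rat and 1 without the first model rat. In TA VS Normal the fit of all 9 libraries called 0 and leaving out 1 liver 0 to 1, and the study's rule gave 1 with the stricter filter and 1 to 2 with 1 liver left out. Tgfb1 in Model VS Normal was called in DESeq2 (adjusted p = 0.0036), limma voom (0.0188), library totals alone (0.0329), without a filter (0.0394), in the fit of all 9 libraries (0.0254) and without the third model rat (0.0198). With the rat number as a block, 3 of 10 were called there, Tgfb1 with 1.92 (adjusted p = 0.0163 in edgeR). In that comparison and in TA VS Model the numbers did not pair the rats, with correlations of same-numbered rats between -0.05 and 0.21, and in TA VS Model the block called 0; in TA VS Normal it changed no call of the 10. Pairing the rats of that comparison, an alternative added after seeing the data, left the mean differences of the Tgfb1 share (-26.0 points) and the Smad7 to Smad3 log2 ratio (0.47) as they were, with an exact permutation p of 0.25 each.

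Directions that changed were all of uncalled genes. With limma voom they were Tgfbr2 (-0.98) and Smad4 (-0.32) in Model VS Normal, Tgfbr2 (1.30), Smad2 (0.015) and Smad4 (0.32) in TA VS Model, and Smad4 (-0.020) in TA VS Normal. Tgfbr2 in TA VS Model was 0.0092 in DESeq2 and 0.066 with the block. With 1 liver left out, the ranges in Model VS Normal were -0.53 to 0.69 for Tgfbr2, -0.072 to 0.37 for Smad4 and -0.064 to 0.26 for Smad7, in TA VS Model -0.43 to 0.76 for Tgfbr2, -0.28 to 0.019 for Smad2, -0.41 to 0.14 for Smad3 and -0.31 to 0.081 for Smad4, and in TA VS Normal -0.021 to 0.41 for Tgfbr1, -0.15 to 0.63 for Tgfbr2, -0.16 to 0.39 for Smad3 and -0.18 to 0.17 for Smad4. The cause was not tested. Read depth limits Tgfb2, with 4 to 13 reads in normal livers.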

Other observations

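Tgfbr2 and Smad4 had their lowest level in the same liver in each of the 3 groups: the third normal rat (9.15 and 11.8 CPM), the second model rat (9.22 and 12.7 CPM) and the third TA rat (11.0 and 15.6 CPM). This was looked for after the values were seen, over all pairs of the 10 genes; Tgfb1 with Tgfbr3 and Tgfb2 with Smad7 also shared their lowest liver in 3 of 3 groups. Chosen after the values were seen as well, the genes with the profile nearest to Tgfbr2 were Maf (0.26), Mtpn (0.31) and Scarb2 (0.33), as the root mean square difference of centred log2 CPM over 9 livers among 7959 genes. Those nearest to Smad7 were Rnf6 (0.16), Ddx3x (0.17) and Msantd4 (0.18).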
